A study of Rattus norvegicus with 6 samples.

Results

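Calcium moves from the endoplasmic reticulum (ER) to mitochondria through a short relay of pumps and channels, and 9 genes of that relay were followed here by name among the 26126 gene entries of the counted table: Atp2a2, Itpr1, Itpr2, Itpr3, Ryr1, Stim1, Orai1, Mcu and Vdac1. All 9 were found. RNA of H9c2, an established myoblast line that originates from the heart of rat embryos, was sequenced in 6 libraries. All 6 went through simulated ischemia-reperfusion, with a buffer of pH 6.2 that held 2-deoxyglucose and lactate, a nitrogen and carbon dioxide flush of 30 min, and a further 1.5 to 3.5 h in the closed chamber. A control adenovirus was given to 3 of them and an adenovirus for PERK, labelled adPERK, to the other 3. No source used here names the promoter that drives the PERK insert, and the labels do not state whether replicates were separate cultures, so p-values reflect the spread of the 6 libraries alone, and that spread can be technical.

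As background, the pump SERCA2, encoded by Atp2a2, fills the ER with calcium, and IP3 receptors (Itpr1, Itpr2 and Itpr3) and ryanodine receptors (Ryr1) release it. Where the ER lies against a mitochondrion, released calcium crosses the outer membrane through VDAC channels (Vdac1) and the inner membrane through the uniporter (Mcu). When the store empties, the ER sensor STIM1 opens the plasma membrane channel ORAI1, which lets calcium back in. Mitochondrial calcium overload is a known event of reperfusion in heart cells, and PERK, an ER stress kinase that phosphorylates eIF2 alpha, has also been described at the contacts between the ER and mitochondria.

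None of the 8 genes that could be tested passed, but Atp2a2, Orai1 and Mcu stood higher in every PERK-labelled library than in any control library, by 1.08-fold to 1.14-fold on the fitted scale. The release channels Itpr1 and Itpr3 and the sensor Stim1 had fitted folds between 0.995 and 1.002. Ryr1 and Vdac1 differed between the groups by less than the spread among PERK-labelled libraries. Itpr2 was almost uncounted. In bulk RNA such as this, fewer cells of a kind and less RNA per cell cannot be told apart. The test was edgeR's quasi-likelihood test over 14488 entries, adjusted by Benjamini-Hochberg, and by it 0.421% of the tested entries changed (61 entries, or 12 to 38 with any 1 library left out). Of the 8 members tested 0 passed at an adjusted p of 0.05 in edgeR, while 3 had an unadjusted p under 0.05. With DESeq2 1 passed, Atp2a2, in a fit where 4.02% of all entries with an adjusted p passed. Unadjusted p-values under 0.05 were found for 11.2% of all tested entries. Groups that do not overlap were found for 18.2% of all entries, and for 9.66% with the PERK-labelled side higher, beside 3 of the 8 members tested.

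**Figure D1:**
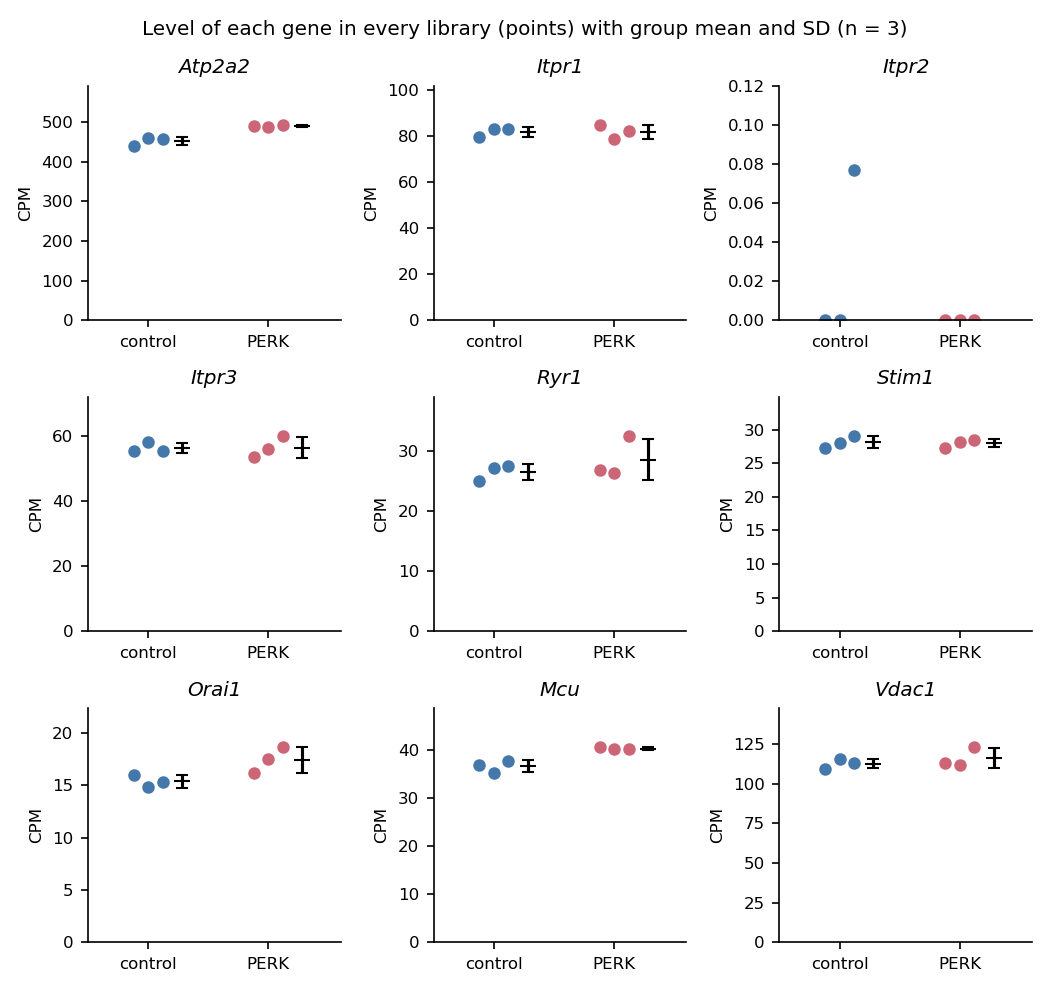
CPM (counts scaled to a common TMM library total) of each of the 9 genes in every library, with points for single libraries and black marks for the group mean and SD of 3 libraries (not drawn for Itpr2). All 3 PERK-labelled points lie above all control points for Atp2a2, Orai1 and Mcu, and the groups overlap for Itpr1, Itpr3, Ryr1, Stim1 and Vdac1.

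Total counts ran from 77923398 to 119087414 per library, and the tested members held between 1192 counts (Orai1 in a control library) and 58351 counts (Atp2a2 in a PERK-labelled library). A counting step of 6 was assumed for low counts and was not estimated. Counts off that step occur, such as 3 for Ryr2 in control replicate 3 and 15 for Nfatc2 in control replicate 1. The number of independent fragments is unknown, and the limits given for counts of 0 cover counting error only. Values of single libraries are given in the order of replicates 1 to 3. Eif2ak3, which encodes PERK, was 26.4, 26.9 and 23.9 CPM in the control group and 26.5, 26.5 and 25.9 CPM in the PERK-labelled group (edgeR adjusted p = 0.887). The overexpression is thus not seen in this count, and directions below rest on the labels alone. All 9 myoblast markers looked at, such as Myog and Myh3, reached 1 CPM in every library, with a summed level of 994 to 1088 CPM in the control group and 968 to 1017 CPM in the PERK-labelled group. Myog alone among them changed, and it fell (means 486 and 400 CPM, edgeR adjusted p = 0.0137). Of 5 cardiomyocyte markers 0 reached 1 CPM in every library, Nppa was at 0 in all 6, and the sum was at most 0.809 CPM. The cells thus carried these 9 myoblast markers and at most traces of these 5 cardiomyocyte markers. The contrast depends on the lists, because Tnnt2 and Actc1, counted as myoblast markers, are also genes of heart muscle. Tnnt2 had means of 169 and 173 CPM in the control and PERK-labelled groups. Casq2, the calsequestrin of heart muscle, had means of 535 and 566 CPM. Summed markers were 1.29 to 1.66 CPM in the control group and 0.638 to 0.877 CPM in the PERK-labelled group for endothelium (3 genes measured), and 0.677 to 1.36 and 1.08 to 1.24 CPM for leukocytes (3 genes). The endothelial sum was nearly all Tek (means 1.40 and 0.792 CPM), which did not pass (edgeR adjusted p = 0.225). Cdh5 and Kdr were counted in control replicate 3 alone. Epithelial markers (3 genes, nearly all of it Krt8) summed to 38.8 to 40.3 CPM and 40.9 to 41.6 CPM. The part of the Tek and Myog differences in the results below was not tested.

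Atp2a2 encodes SERCA2, the pump that moves calcium from the cytosol into the ER. It read 441, 461 and 456 CPM in the control group and 491, 487 and 493 CPM in the PERK-labelled group. The lowest PERK-labelled library was above the highest control library, and the PERK-labelled libraries lay closer together (SD 2.64 CPM, against 10.4 CPM in control, n = 3 each). The log2 fold change was 0.12 (SE 0.03), a fold of 1.08 with a 95% confidence interval of 1.03 to 1.14. The edgeR adjusted p was 0.19, so Atp2a2 did not pass, although its unadjusted p of 0.00394 ranked 300th among the tested entries. DESeq2, run on the same counts, gave a log2 fold change of 0.11 and an adjusted p of 0.00386, in a fit where 4.02% of entries with an adjusted p passed (2.69% higher). The authors' deposited table also lists Atp2a2 below 0.05, with a log2 fold change of 0.12 and an adjusted p of 0.0369, where 2.27% of its entries with an adjusted p passed (0.715% higher). The size of the difference was thus nearly the same in the fits, and the call was not.

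The groups overlapped for both paralogs of the pump, and whether the paralogs differ from Atp2a2 was not tested. Atp2a1, the pump of fast skeletal muscle, had a log2 fold change of -0.08 (SE 0.14), and Atp2a3, found in many non-muscle cells, -0.09 (SE 0.10). Both had edgeR adjusted p above 0.7. Atp2a2 took 96.7, 96.3 and 96.6% of the counts of the 3 pump genes in the control group and 97.1, 97.0 and 96.8% in the PERK-labelled group, as shares of counts and not per length of transcript. Small inhibitors of the pump were measured too. Pln, encoding phospholamban, was at 7.54 ± 0.158 CPM in the control group and 6.96 ± 1.51 CPM in the PERK-labelled group, and Sln, encoding sarcolipin, at 2.05 ± 0.662 and 1.51 ± 0.24 CPM (SD, n = 3), neither past the test.

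The DNA just before the start of Atp2a2 is shown because SERCA2 belongs to the genes that ER stress is known to raise, and the ER stress response element (ERSE) is the sequence through which ATF6 and NF-Y act on such genes. The element reads CCAAT, any 9 bases, then CCACG, and it was searched on both strands. Among the 8 members with a promoter in the RefSeq table of the GRCr8 assembly (all but Mcu), 0 held the exact element in the 250 bases before the start. Allowing any last base (CCAAT, any 9 bases, then CCAC and any base), a form chosen after the Atp2a2 promoter had been read, gave 1 match, in Atp2a2, 79 to 61 bases before the start. The exact element is found in 0.0657% and the looser form in 0.29% of 33469 rat promoters of this length. The 250 bases before the start of Atp2a2 (chr12:39733269-39733518, GRCr8, plus strand) follow, with the match in capitals.
Atp2a2: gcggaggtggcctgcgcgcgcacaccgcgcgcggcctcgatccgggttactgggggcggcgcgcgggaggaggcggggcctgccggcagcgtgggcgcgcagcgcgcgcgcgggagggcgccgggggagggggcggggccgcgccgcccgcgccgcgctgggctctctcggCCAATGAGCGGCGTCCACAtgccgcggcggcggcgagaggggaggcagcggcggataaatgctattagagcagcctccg

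Beside it stand the matches in 3 ER chaperone genes known as targets of this element, each written in the direction of the motif, with the letters that the looser form fixes in capitals. Hsp90b1 holds 2 matches, and all 4 matches in the 3 chaperone genes are exact.
Atp2a2: CCAATgagcggcgtCCACa
Hspa5: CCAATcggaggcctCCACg
Calr: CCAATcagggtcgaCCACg
Hsp90b1, first: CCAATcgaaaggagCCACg
Hsp90b1, second: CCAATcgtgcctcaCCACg
The log2 fold changes of these chaperone genes were 0.15 for Hspa5 (SE 0.04, edgeR adjusted p = 0.198), 0.03 for Calr and 0.01 for Hsp90b1, none past edgeR's test. Hspa5, which encodes the chaperone BiP, was 542, 533 and 528 CPM in the control group and 621, 600 and 562 CPM in the PERK-labelled group. Its groups did not overlap, as for Atp2a2, while those of Calr and Hsp90b1 did. A match is a description of letters and not a shown binding site. In the 300 bases from 250 before to 50 after the start, a second stress element (ERSE-II, ATTGG, any 1 base, then CCACG, in 0.0508% of promoters), the ATF4-type site TGATGNAAT (1.09%) and the cyclic AMP element TGACGTCA (1.83%) were found in 0 of the 8 member promoters.

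Itpr1 encodes the type 1 IP3 receptor, an ER channel opened by the messenger IP3. It stood at 79.4, 83.2 and 82.9 CPM in the control group and at 84.8, 78.7 and 82.0 CPM in the PERK-labelled group. Both the highest and the lowest of the 6 values belonged to PERK-labelled libraries. The fold was 1.000 with a 95% confidence interval of 0.928 to 1.08 (edgeR adjusted p = 0.999).

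Itpr3 encodes the type 3 receptor, known for feeding calcium to mitochondria. It read 55.7, 58.3 and 55.4 CPM in the control group and 53.6, 56.0 and 60.1 CPM in the PERK-labelled group. The control values lay inside the range of the PERK-labelled values. The fold was 1.002 with a 95% confidence interval of 0.92 to 1.09 (edgeR adjusted p = 0.989). A change of Itpr1 or Itpr3 by more than about these bounds is outside the intervals, while a smaller one remains possible. The smallest change that could have passed was not computed. Itpr1 made up 59.2 ± 0.634% of the counts of the 3 receptor genes in control and 59.1 ± 1.89% in the PERK-labelled group (SD, n = 3), as a share of counts and not per length.

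Itpr2, the type 2 receptor, which is the main one of heart muscle cells, had 6 counts in control replicate 3 and 0 in the other 5 libraries. With the assumed step of 6 counts, a count of 0 was taken to allow up to 18 counts (3 steps). That is 0.150 to 0.231 CPM depending on the library, and less if the step is smaller. Both groups lay under that limit, so no fold is given, and Itpr2 did not pass the low-count filter. Control replicate 3 had the most entries above 0 of the 6 libraries, 19287 against 15377 to 16685. The authors' deposited table gives Itpr2 a log2 fold change of -3.63 with an adjusted p of 0.16, from the same 6 counts.

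Ryr1 encodes the ryanodine receptor of skeletal muscle, a large release channel that couples to excitation. It read 24.9, 27.1 and 27.4 CPM in the control group and 26.8, 26.3 and 32.4 CPM in the PERK-labelled group. Replicate 3 of the PERK-labelled group stood apart, and the other 2 lay inside the control range. Ryr1 thus had a log2 fold change of 0.11 (SE 0.09, edgeR adjusted p = 0.696), which became 0.0067 without PERK-labelled replicate 3. Ryr2, the receptor of heart muscle, had 3 counts in control replicate 3 and 0 elsewhere. Ryr3, a receptor of lower abundance in many tissues, had 54, 0 and 30 counts in the control group and 0, 7 and 23 counts in the PERK-labelled group, too few for a comparison. The ryanodine receptor counts of these cells were thus those of the skeletal type, with Ryr1 at 98.1% or more of the family's counts in every library.

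**Figure D2:**
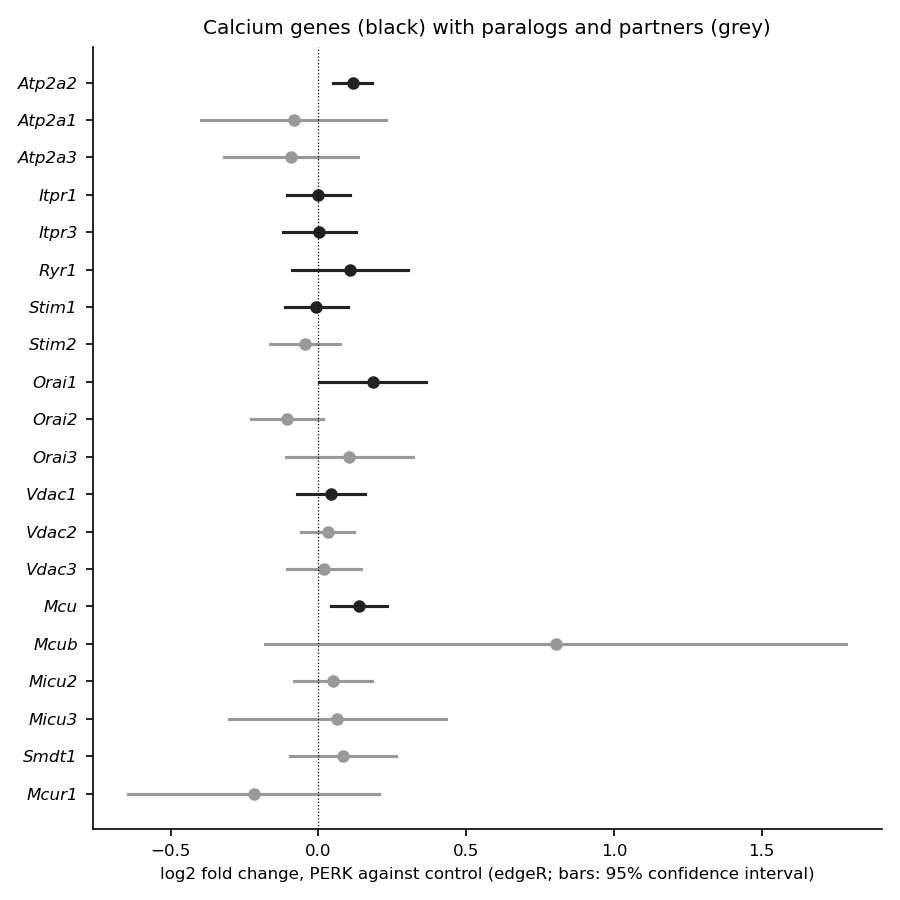
Log2 fold changes (PERK-labelled against control, edgeR) with 95% confidence intervals for the 8 tested genes in black and their paralogs and partners in grey. Ryr3, whose interval ran from -5.15 to 2.20, is not drawn. The intervals of Atp2a2, Orai1 and Mcu lie above 0 before any adjustment over all entries, and those of Itpr1, Itpr3 and Stim1 are centred near 0.

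Store-operated entry was measured through its sensors and channels. Stim1, which senses the calcium level inside the ER, was at 27.3, 28.1 and 29.0 CPM in the control group and 27.3, 28.2 and 28.5 CPM in the PERK-labelled group. The 2 groups covered nearly the same range. The fold was 0.995 with a 95% confidence interval of 0.924 to 1.07 (edgeR adjusted p = 0.97). Stim2, the sensor that responds to small losses of ER calcium, was at 54.4 ± 1.85 and 52.7 ± 2.63 CPM (SD, n = 3; edgeR adjusted p = 0.8).

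Orai1 encodes the pore of the calcium release-activated channel. It read 16.0, 14.8 and 15.3 CPM in the control group and 16.2, 17.5 and 18.6 CPM in the PERK-labelled group. The groups did not overlap, but control replicate 1 and PERK-labelled replicate 1 nearly met. Orai1 had a log2 fold change of 0.18 (SE 0.08, edgeR adjusted p = 0.434), a fold of 1.14 with a 95% confidence interval of 1.002 to 1.29. Without PERK-labelled replicate 3 it was 0.13, and without PERK-labelled replicate 1 it was 0.24. The authors' deposited table gives 0.19 with an adjusted p of 0.9.

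Orai2, a paralog that forms mixed channels with ORAI1, lay on the other side. It was at 26.8, 28.9 and 25.9 CPM in the control group and 25.4, 25.0 and 25.5 CPM in the PERK-labelled group, with every PERK-labelled value below every control value (log2 fold change -0.11, SE 0.05, edgeR adjusted p = 0.496). Orai3, the third channel gene, was at 8.36 ± 0.0711 CPM in the control group and 8.99 ± 0.531 CPM in the PERK-labelled group (SD, n = 3; edgeR adjusted p = 0.736), also without overlap, and higher. Orai1 took 31.3, 28.4 and 30.8% of the counts of the 3 ORAI genes in control and 32.3, 33.6 and 35.2% in the PERK-labelled group. That is 3.53 percentage points more on average, and between 2.66 and 4.23 points with any 1 library left out. The shares are of counts, not per length, and whether the 3 paralogs differ in their response was not tested.

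**Figure D3:**
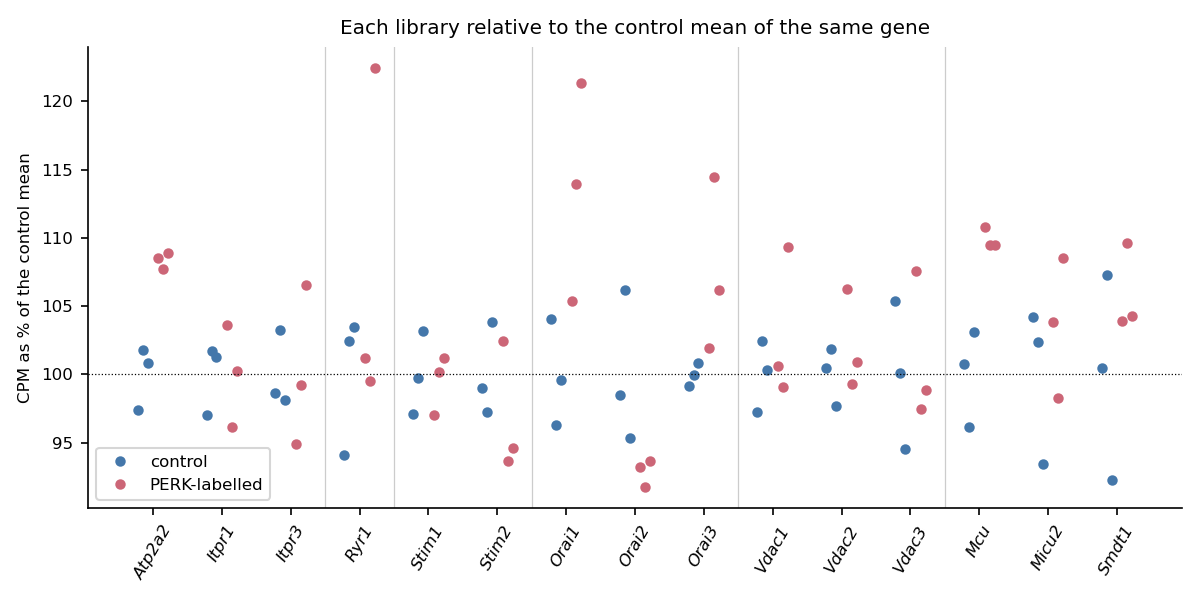
CPM of each library as a percentage of the control mean of the same gene, for the tested members and their main paralogs and partners, with control libraries in blue and PERK-labelled libraries in red. PERK-labelled libraries lie above every control library for Atp2a2, Orai1, Orai3 and Mcu and below every control library for Orai2.

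Vdac1 encodes a main channel of the outer mitochondrial membrane, through which calcium and metabolites pass. It read 110, 115 and 113 CPM in the control group and 113, 112 and 123 CPM in the PERK-labelled group. As for Ryr1, PERK-labelled replicate 3 was the highest and the other 2 lay inside the control range. Vdac1 had a log2 fold change of 0.04 (SE 0.05, edgeR adjusted p = 0.806), which became -0.00068 without PERK-labelled replicate 3. Vdac2 and Vdac3, the other VDAC genes, had log2 fold changes of 0.03 and 0.02, and Vdac1 took 24.7 ± 0.955% and 25.0 ± 1.43% of the family's counts in the control group and PERK-labelled libraries (SD, n = 3).

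Mcu encodes the pore of the mitochondrial calcium uniporter, through which calcium enters the matrix. It stood at 37.0, 35.3 and 37.8 CPM in the control group and at 40.7, 40.1 and 40.2 CPM in the PERK-labelled group. The PERK-labelled values were all above the control values and spread less (SD 0.285 CPM against 1.29 CPM). Mcu had a log2 fold change of 0.14 (SE 0.04, edgeR adjusted p = 0.25, unadjusted p = 0.0101), a fold of 1.10 with a 95% confidence interval of 1.03 to 1.17. DESeq2 gave an adjusted p of 0.321, and the authors' deposited table lists 0.14 with an adjusted p of 0.826. Mcu was thus past the threshold in none of these fits.

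Other genes of the uniporter were read beside it. Micu2, a calcium-sensing regulator of the pore, and Smdt1, which encodes the essential subunit EMRE, had log2 fold changes of 0.05 (SE 0.06) and 0.08 (SE 0.08). Micu3, a paralog used mainly in nerve and muscle, was at 0.06 (SE 0.16), and Mcur1, an assembly factor, at -0.22 (SE 0.18). Mcub, a subunit that dampens the pore, was thinly counted, with 125, 49 and 39 counts in the control group and 69, 205 and 133 counts in the PERK-labelled group. Its log2 fold change of 0.80 had an SE of 0.43 (edgeR adjusted p = 0.526), and its groups overlapped.

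Among the 8 tested members, 6 lay above 0 and 2 below, with a median log2 fold change of 0.07, beside a median of -0.0045 over all tested entries. PERK-labelled replicate 3 held the highest value of 5 of the 8 (Atp2a2, Itpr3, Ryr1, Orai1 and Vdac1), where it holds the highest value of 16.0% of all tested entries. This count was made after the values had been seen.

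The wider calcium pathway was read from 10 lists holding 126 genes of the table, of which 114 passed the low-count filter. Of the 114, 0 changed in edgeR and 19 had an unadjusted p under 0.05, where 11.2% of all tested entries did. Above 0 lay 73 and below 0 lay 41, with a median of 0.03. Groups did not overlap with the PERK-labelled side higher for 23 and lower for 5, where the shares over all entries are 9.66% and 8.54%. With DESeq2 5 of the 99 list genes with an adjusted p passed, Atp2a2, Hspa5, Hspa9, Calu and Fkbp1a, all higher. Over all entries with a DESeq2 adjusted p, 4.02% passed (2.69% higher).

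In the list of store-operated entry, 9 of 12 genes were tested and 0 passed, with a median of 0.10. Groups in that list did not overlap for 5 genes higher and 1 lower, where the shares over all entries are 9.66% and 8.54%. The smallest p there belonged to Trpc6, a receptor-operated cation channel, at 9.68, 10.4 and 10.4 CPM in the control group and 12.5, 12.6 and 12.6 CPM in the PERK-labelled group. Trpc6 had a log2 fold change of 0.31 (SE 0.08, edgeR adjusted p = 0.204). The difference was several times the spread within either group, and it still missed the threshold over all entries. In the list of ER pumps and their regulators, 11 of 11 were tested and 0 passed (median -0.00078). Behind Atp2a2 its smallest p belonged to Sri, encoding sorcin, a calcium-binding regulator of release channels and the pump (log2 fold change 0.10, SE 0.05).

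Among ER release channels and their regulators, 10 of 13 genes were tested and 0 passed (median 0.0013). Fkbp1a, which encodes FKBP12, a binding partner of Ryr1 channels, was at 258, 254 and 254 CPM in the control group and 268, 284 and 282 CPM in the PERK-labelled group (log2 fold change 0.12, SE 0.03, edgeR adjusted p = 0.205). Jph2, a junctophilin that holds the ER near the plasma membrane, had 0.26 (SE 0.14), with control replicate 3 at 47.5 CPM and the other 5 libraries between 66.5 and 81.9 CPM. In the list of IP3 production and removal, 12 of 14 were tested and 0 passed (median 0.02). Plcg1, a phospholipase that makes IP3, was lower in every PERK-labelled library (-0.14, SE 0.05). Inpp5a, a phosphatase that removes IP3, was higher in every one (0.14, SE 0.05), and edgeR adjusted p was 0.307 and 0.309.

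Mitochondrial uptake had 10 of 11 genes tested and 0 past the test, with 9 above 0 and 1 below and a median of 0.06. In the list of mitochondrial efflux and permeability transition, 8 of 8 were tested and 0 passed (median 0.04). Slc25a4 and Slc25a5, the adenine nucleotide carriers of the inner membrane, had log2 fold changes of 0.10 (SE 0.03) and 0.08 (SE 0.03) and groups that did not overlap. Genes of ER-mitochondria contact had 14 of 15 tested and 0 past the test (median 0.05). Hspa9, encoding GRP75, which links IP3 receptors to VDAC, was at 203, 192 and 181 CPM in the control group and 204, 225 and 235 CPM in the PERK-labelled group (0.21, SE 0.06, edgeR adjusted p = 0.247). The lowest PERK-labelled value of Hspa9 was just above the highest control value, while the groups of Itpr1, Itpr3 and Vdac1 overlapped.

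Calcium-binding proteins of the ER lumen had 13 of 13 genes tested and 0 past the test (median 0.03). Hspa5 had the smallest p there, followed by Calu, encoding calumenin (0.09, SE 0.03). At the plasma membrane 12 of 14 were tested and 0 passed (median 0.03). Cacna1g, a T-type calcium channel, was lower in every PERK-labelled library (-0.57, SE 0.24, edgeR adjusted p = 0.438), and Slc8a1, the sodium-calcium exchanger, was higher in every one (0.10, SE 0.05). Calcium responders had 15 of 18 tested and 0 past the test (median 0.005). Rcan1, an inhibitor of calcineurin that is itself a target of calcineurin and NFAT, was at 23.1, 23.3 and 25.2 CPM in the control group and 28.4, 28.2 and 26.6 CPM in the PERK-labelled group (0.22, SE 0.06, edgeR adjusted p = 0.193). Nfatc4, an NFAT factor, was at 21.1, 20.0 and 21.9 CPM in the control group and 16.0, 16.9 and 18.6 CPM in the PERK-labelled group (-0.29, SE 0.08, edgeR adjusted p = 0.201).

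**Figure D4:**
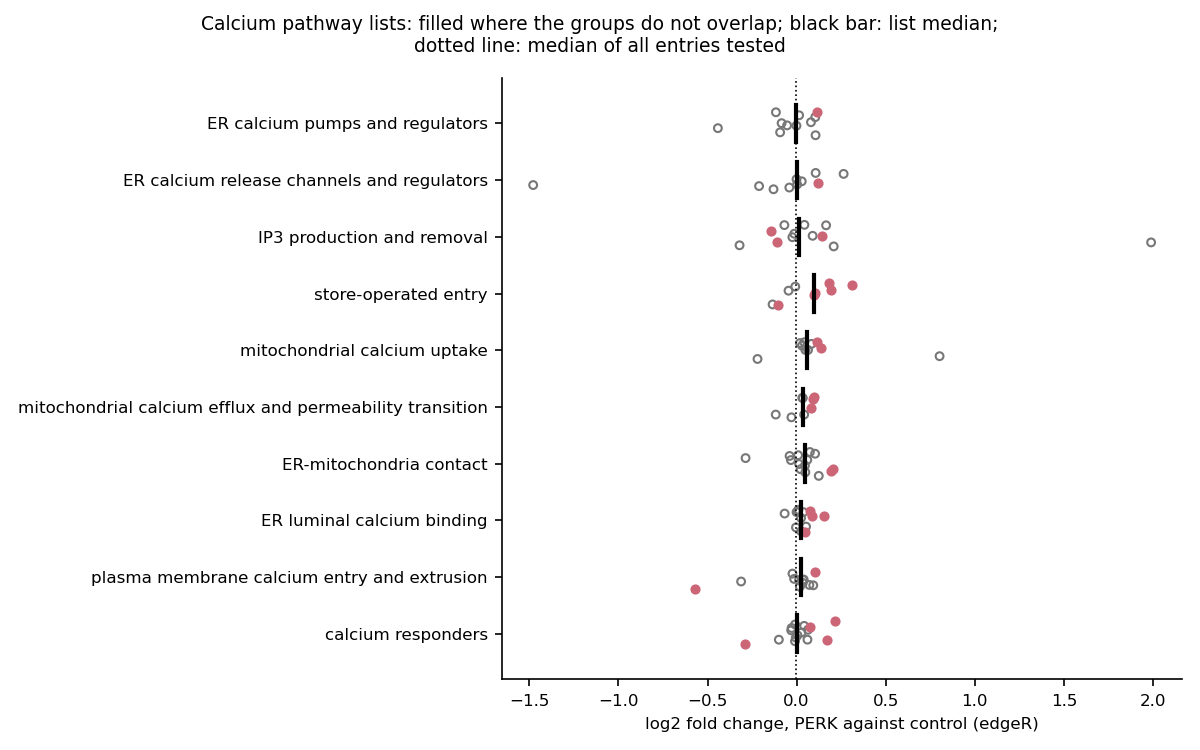
Log2 fold changes (PERK-labelled against control, edgeR) of the 114 tested genes of 10 calcium lists, each gene drawn in the list that holds it. Filled points are genes whose groups do not overlap, black bars are list medians between -0.00078 and 0.10, and the dotted line is the median of all tested entries, -0.0045. Most points lie within a narrow band around the dotted line, and the far points (Ryr3 at -1.48, Itpka at 1.99) are thinly counted genes.

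Across the 6 libraries, the list genes most like each member were found by Pearson's r of log2 CPM among 113 candidates. The points share the 6 libraries and their group difference, and with 6 points high values arise readily, so the values are a description. Atp2a2 was most like Trpc6 (r = 0.989) and Capn2 (0.945), and Mcu was most like Calu (0.973) and Rcan1 (0.935). Orai1 was most like Hspa9 (0.943). Ryr1 and Vdac1 were each other's nearest gene (0.977), both with PERK-labelled replicate 3 highest, and Saraf was next for both (0.878 and 0.881). Itpr3 was most like Ahcyl1 (0.977) and Trpm7 (0.887). Itpr1 and Stim1 had no list gene above 0.804, their nearest being Pdia3 (0.749) and Ppp3cc (0.74) for Itpr1 and Park7 (0.804) and Nucb1 (0.801) for Stim1.

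The fold changes of the members were then set beside those from 15 other settings. Atp2a2, Orai1, Mcu and Ryr1 lay above 0 in all 15, and Atp2a2 had the narrowest range of these 4, from 0.096 to 0.13. Ryr1 and Vdac1 rested most on a single library, PERK-labelled replicate 3. The values of Itpr1, Itpr3 and Stim1 lay on both sides of 0 when single libraries were left out.

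**Figure D5:**
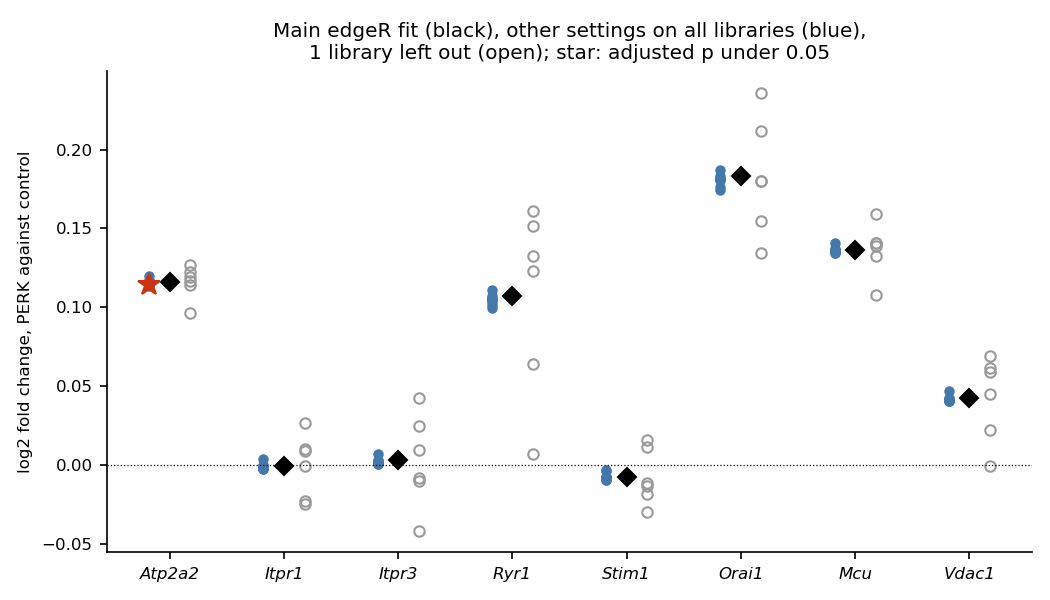
Log2 fold change of each tested member in the edgeR analysis reported above (black), under 9 other settings on all 6 libraries (blue) and with 1 library left out (open circles). The star marks the single call below an adjusted p of 0.05, Atp2a2 with DESeq2, and the open circles of Ryr1 spread from 0.0067 to 0.16.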

How the data were processed

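The authors' deposited table gives whole-number counts per gene for 26126 entries in 6 libraries, which entered the tests unchanged. Bowtie 0.12.2 and the build mm9 are listed in the submitters' processing notes, although the entries carry rat symbols. No source used here names the counting program. The authors' deposited log2 fold changes and p-values were copied for the members and Eif2ak3, and the adjusted p was counted over all entries that have one. A second table with 6 columns whose names match no label was not used.

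In edgeR 4.0.16 (R 4.3.3), filterByExpr with a minimum count of 10 removed low entries, TMM set the scaling, and glmQLFTest on a non-robust quasi-likelihood fit compared the groups with no other term. Levels are CPM of the TMM-scaled totals. Standard errors were the fold change divided by the root of F, and intervals from the matching t distribution. Alternatives used DESeq2 1.42.0 and limma 3.58.1 (voom), other scalings, other filters, counts divided by 6, a replicate block and the removal of single libraries.

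Genes named in the text are Eif2ak3, the 9 members, their paralogs and direct partners, and the cell type markers. The 2 smallest p-values of each list and the 2 genes most like each member were named too. Others (Pln, Sln, Casq2, Calr, Hsp90b1 and Itpka) were named after their values were seen. The members and lists were chosen with earlier results of these data known. List genes that matched no entry were not analysed here, and Stimate was read as Tmem110. A few genes under this naming rule are not reported here, though the fits and the totals include them. No list test was run. No pairing by replicate number was seen or used in the main fit (see the closing section).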

Additional observations from a re-analysis of the deposited data

How the results depend on the processing

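The alternatives were chosen with earlier results of these data known. Over 15 alternatives for each of 8 tested members, 109 of 120 values kept their sign and their side of the threshold. With DESeq2 Atp2a2 passed (log2 fold change 0.11, adjusted p = 0.00386), 1 member was called in place of 0, and 5 list genes in place of 0. In that fit 4.02% of all entries with an adjusted p passed. In the other 14 alternatives Atp2a2 stayed between 0.096 and 0.13 with adjusted p from 0.102 to 0.435. The cause of the difference was not tested. Signs turned for members near 0. Itpr1 was 0.0038 without a low-count filter and lay between -0.025 and 0.027 with 1 library left out. With 1 library left out Itpr3 lay between -0.042 and 0.043, Stim1 between -0.030 and 0.016 and Vdac1 between -0.00068 and 0.069. No member and no list gene passed with any library left out. Calls over the whole table numbered 61, and 9 with a replicate block, 372 with DESeq2, 110 with limma voom, 94 without a filter, 132 with robust estimation and 93 with counts divided by 6. Leaving out a control library gave 38 (replicate 1), 26 (replicate 2) or 23 (replicate 3), and leaving out a PERK-labelled one gave 12 (replicate 1), 21 (replicate 2) or 14 (replicate 3), with fewer libraries in each such fit.

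Same-numbered libraries did not deviate together over the tested entries (r = -0.06, 0.01 and 0.03 for replicates 1, 2 and 3). Thinly counted entries weigh as much as others in these values. The labels do not say whether same-numbered libraries share a culture, and these values cannot show it. In the fit with a replicate block Atp2a2 was 0.12 (adjusted p = 0.321), Mcu 0.14 (0.37) and Orai1 0.18 (0.522), and 0 members passed. No control library correlated best with its own number. Control replicate 1 was nearest to PERK-labelled replicate 2 (0.06), and control replicates 2 and 3 to PERK-labelled replicate 1 (0.025 and 0.032). From the other side, PERK-labelled replicate 3 was nearest to control replicate 3 (0.029). Shares per length of transcript were not run, because no transcript lengths of the counted entries were at hand. No value of these settings is given for Itpr2, which has 6 counts in all.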
